A study of Mus musculus with 13 samples.

Results

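Irradiated submandibular glands were compared as 1 group with glands that were not irradiated, to find changes that did not depend on which vector the irradiated glands had received. The comparison took in all 13 libraries of the study. Of these, 10 came from irradiated mice and 3 from mice that were not irradiated (NonIR). Irradiated mice had been injected 10 days earlier with an adeno-associated virus type 2 vector. In 5 libraries, IR_GFP, the vector was AAV2-GFP and carried green fluorescent protein. In the other 5 libraries, IR_NTN, it was Cere-120 (AAV2-NRTN) and carried neurturin, a GDNF-related growth factor of parasympathetic neurons. All mice were 1 year old, of the strain labelled CH3, and glands were taken on day 300 after treatment. The sources used here give neither the irradiation dose nor the promoter of the vectors. They do not say whether NonIR mice received a vector, so irradiation and vector cannot be told apart in any value set against NonIR.

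The 5 IR_GFP and the 5 IR_NTN libraries entered the comparison with equal weight for each vector. A change present in only 1 vector group is therefore halved in the pooled value, and the difference between the vector groups was tested for every gene. The members are all 48709 gene rows of the count table, of which 14727 passed a filter on low counts and were tested. Levels are CPM, counts scaled by library size and TMM factor, and changes are log2 fold changes of irradiated over NonIR glands from 1 edgeR fit to all 13 libraries. A gene is called when its Benjamini-Hochberg adjusted p over all genes tested is below 0.05. The labels do not tie the libraries to separate animals, so p-values measure the spread between these libraries.

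The submandibular gland of the mouse makes saliva in serous acinar cells, which pass it to ducts that change its ions. Its granular convoluted tubules, a duct segment, store growth factors and kallikreins in granules that are released on nerve stimulation. Ionizing radiation is a standard means of injuring salivary glands. It breaks DNA and activates p53, a transcription factor that induces genes of cell cycle arrest, such as Cdkn1a, and the microRNA miR-34a.

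Read totals lay between 9724301 (IR_GFP 1) and 16771003 (IR_GFP 4), and NonIR totals between 12662272 and 13745798. The acinar markers Bhlha15, Aqp5 and Pip and the granular tubule markers Egf, Klk1 and Ren1 were detected in all 13 libraries. The summed level of 20 granular tubule genes lay between 52270 and 72700 CPM in NonIR and between 15910 (IR_GFP 1) and 71460 CPM in irradiated libraries. IR_GFP 1 also had the fewest reads, and its 20 most abundant genes held 34.99% of them, against 42.1 to 60.15% in the other 12 libraries. Skeletal muscle genes summed to 207 CPM in IR_GFP 2 and to 4.65 to 7.96 CPM elsewhere. Lymph node genes summed to 17.4 CPM in IR_GFP 5 and to 2.11 to 5.33 CPM elsewhere. Rows for the vector sequences tg_EGFP and tg_AAV2 held 0 reads in all 13 libraries, which allows up to 3 reads in each.

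Irradiated glands differed from NonIR glands in 16 of 14727 genes (0.109%), of which 5 rose (0.0340%) and 11 fell (0.0747%). Transcripts that rose were Gm37795, an unclassified transcript beside the miR-34a gene, the coiled-coil genes Ccdc62 and Ccdc137, the nucleolar protease gene Senp3 and the clock output gene Tef. Those that fell included Rab27a, a GTPase of secretory granules, Il1rn, the antagonist of the interleukin-1 receptor, Zdhhc2, Dpysl3, Mrfap1, Arl4a, Spata13 and Tex2. In 15 of the 16 the range of the 10 irradiated libraries did not overlap that of the 3 NonIR libraries, a separation seen in 275 of all genes tested (1.87%). Of the 15, Slitrk4 and Gm12887 passed the filter only through their NonIR libraries. An unadjusted p below 0.05 was reached by 1287 genes (8.74%), 716 of them higher and 571 lower. The median log2 fold change of all genes tested was 0.0088. With DESeq2 size factors in place of TMM the same test called 12 genes, 5 higher and 7 lower. The count was less stable in other settings: limma-voom called 2 genes, and edgeR called 0 without NonIR 2 or without NonIR 3. In bulk tissue fewer cells of a type and less RNA per cell cannot be told apart, which applies to every value below.

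**Figure D1:**
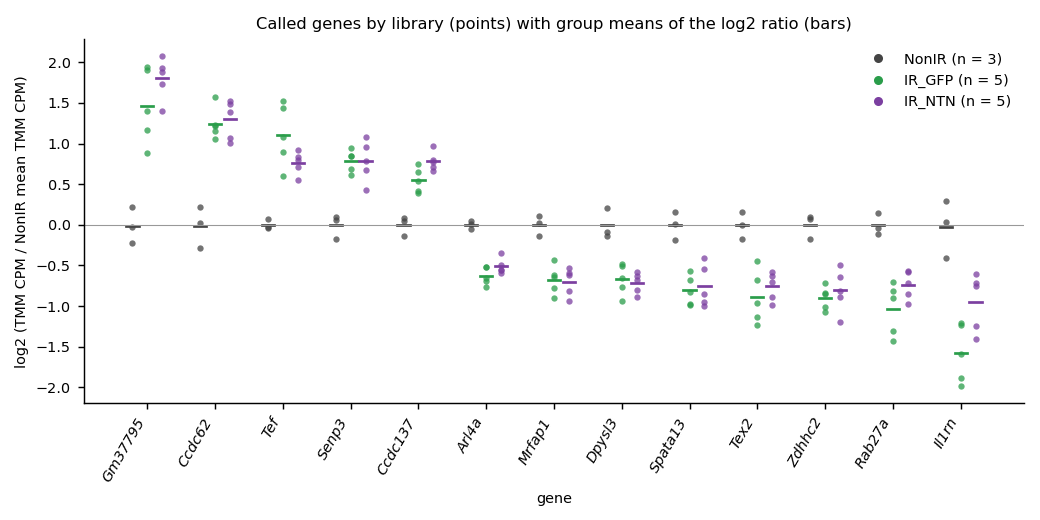
Level of 13 called genes in each library as log2 of its CPM over the mean CPM of the 3 NonIR libraries, with NonIR in grey, IR_GFP in green and IR_NTN in purple, and bars for the group means of the log2 ratio. The 10 irradiated libraries lie on 1 side of the 3 NonIR libraries for each gene drawn. The fitted change is 3.18-fold for Gm37795 and 1.48-fold for Arl4a (NonIR over irradiated). The low-count genes Slitrk4, Cst10 and Gm12887 are not drawn.

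Gm37795 rose in both vector groups. It held 37.0, 44.1 and 32.4 CPM in the NonIR libraries, 141, 145, 99.8, 70.1 and 84.8 CPM in IR_GFP and 144, 99.8, 126, 139 and 160 CPM in IR_NTN. Every irradiated library was above every NonIR library, and IR_GFP 4 was the lowest of the irradiated. The log2 fold change was 1.67 (SE 0.22, edgeR adjusted p = 0.0148), a fitted rise of 3.18-fold, with 1.52 in IR_GFP and 1.82 in IR_NTN. Means were 37.8 ± 5.85 CPM over the 3 NonIR libraries and 121 ± 30.1 CPM over the 10 irradiated ones (± SD).

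Gm37795 (ENSMUSG00000102813) is a single-exon transcript of 2459 bases on the plus strand of GRCm38 chromosome 4, from 150068539 to 150070997, in the GENCODE class TEC, which holds unclassified transcripts that await experiment. Because its name is that of a predicted gene, it is named here after its values were seen. The annotation puts it directly downstream of Mir34a on the same strand. Gm37795 starts 2 bases after the last base of miR-34a-3p and overlaps the Mir34a hairpin (150068454 to 150068555). The row of Mir34a itself did not pass the filter. Libraries of this kind are not made to capture mature microRNAs, and no level of miR-34a was measured. The mature sequences from RefSeq (GRCm38.p6) are printed because they are the neighbours of the called transcript with the lowest p, with the seed, bases 2 to 8, in capitals.
miR-34a-5p: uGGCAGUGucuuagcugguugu
miR-34a-3p: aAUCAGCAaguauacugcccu
The 5p arm spans 150068473 to 150068494 and the 3p arm 150068517 to 150068537, both on the plus strand. Without strand information in the library kit, reads of an antisense transcript would be counted with Gm37795.

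Ccdc62, a coiled-coil protein gene best known from testis, held 5.27, 3.71 and 4.58 CPM in NonIR, 10.5, 10.6, 9.38, 10.0 and 13.4 CPM in IR_GFP and 9.11, 12.7, 13.03, 9.50 and 11.8 CPM in IR_NTN. All 10 irradiated libraries were above the 3 others, with little spread within each vector group. The log2 fold change was 1.28 (SE 0.18, edgeR adjusted p = 0.0148), a fitted rise of 2.43-fold, and the vector groups lay at 1.25 and 1.31. Ccdc62 (ENSMUSG00000061882) lies on chromosome 5 from 123930679 to 123969895 on the plus strand.

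Senp3 encodes a protease that removes SUMO from nucleolar proteins and is needed for ribosomal RNA processing. Its levels were 43.2, 50.5 and 52.0 CPM in NonIR, 78.2, 74.5, 87.7, 93.7 and 87.1 CPM in IR_GFP and 65.2, 94.1, 83.7, 102 and 77.2 CPM in IR_NTN. The groups did not overlap, and the lowest irradiated library was IR_NTN 1. Senp3 rose by 0.80 in log2 units, with SE 0.14 and an edgeR adjusted p of 0.0452, and 0.79 in IR_GFP and 0.80 in IR_NTN. Ccdc137 rose by 0.67, with SE 0.12 and an edgeR adjusted p of 0.0466, from 14.7 to 17.2 CPM in NonIR to a lowest, median and highest of 21.1, 26.1 and 31.6 CPM in the irradiated libraries. Senp3 (ENSMUSG00000005204) lies on chromosome 11 from 69673115 to 69682084 on the minus strand.

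Rab27a, the small GTPase that docks secretory granules at the plasma membrane through its effectors, fell. Its levels were 1361, 1201 and 1138 CPM in NonIR, 456, 498, 698, 756 and 659 CPM in IR_GFP and 685, 748, 826, 834 and 628 CPM in IR_NTN. The highest irradiated library, IR_NTN 4, was below the lowest NonIR library, and IR_GFP 1 was the lowest of all. Rab27a fell by 0.87 in log2 units, with SE 0.14 and an edgeR adjusted p of 0.0404. Means were 1233 ± 115 CPM over NonIR and 679 ± 126 CPM over irradiated libraries (± SD), with log2 fold changes of -1.01 in IR_GFP and -0.73 in IR_NTN. Rab27a (ENSMUSG00000032202) lies on chromosome 9 from 73044854 to 73097629 on the plus strand.

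Of 28 granule docking and exocytosis genes, 27 were tested, 1 was called, 11 were higher and 16 lower, and the median was -0.03 against 0.0088 for all genes, and -0.11 without IR_GFP 4. Their summed level was 2523 to 2628 CPM in NonIR and 1550 to 2346 CPM in irradiated libraries. Rab27a itself made up 1138 to 1361 CPM of this sum in NonIR and 456 to 834 CPM in irradiated libraries. The sum therefore does not show a fall of the other members. The next members by p were Snap23, a SNARE of the plasma membrane, at -0.37 (edgeR adjusted p = 0.312), the Rab27 effector Sytl4 at -0.35 and the recycling endosome GTPase Rab11a at -0.24, none of them called. Snap23 lay between 54.6 and 57.2 CPM in NonIR and between 35.8 and 52.2 CPM in irradiated libraries, without overlap. The summed level of granular tubule genes given above did not follow Rab27a in every library. IR_GFP 1 was lowest in both, with 15910 CPM of these genes and 456 CPM of Rab27a. IR_GFP 2 held 71460 CPM of them with Rab27a at 498 CPM, and IR_NTN 3 held 44540 CPM with Rab27a at 826 CPM. The part of the granular tubule genes in the Rab27a result was not tested. Leaving out 1 library kept Rab27a called without IR_GFP 1 (edgeR adjusted p = 0.0217) or IR_GFP 4 (0.0257). In the other 11 fits the adjusted p was 0.0524 to 0.296, the highest without NonIR 2.

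Il1rn, which encodes a secreted protein that blocks the interleukin-1 receptor, fell. It held 7.66, 9.20 and 5.64 CPM in NonIR, 3.19, 3.23, 2.03, 1.89 and 2.496 CPM in IR_GFP and 3.15, 4.46, 4.56, 2.83 and 4.92 CPM in IR_NTN. The groups did not overlap, with IR_GFP libraries mostly below IR_NTN libraries. Il1rn fell by 1.23 in log2 units, with SE 0.21 and an edgeR adjusted p of 0.0452, by 1.54 in IR_GFP and by 0.91 in IR_NTN. Of 18 interleukin-1 family members 11 were tested, and 10 of these had a value below 0, with Il1rn the 1 called and a list median of -0.16. The decoy receptor Il1r2 was at -1.11 (edgeR adjusted p = 0.454) and the receptor antagonist Il1f5, also known as Il36rn, at -0.72 (edgeR adjusted p = 0.466), neither of them called. Il1r2 ranged from 1.798 to 2.62 CPM in NonIR and from 0.270 to 2.54 CPM in irradiated libraries. Il1a, Il1b, Il1rl1 and Nlrp3 were below the filter, so the cytokines that Il1rn opposes could not be compared. Il1rn (ENSMUSG00000026981) lies on chromosome 2 from 24336853 to 24351494 on the plus strand.

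The other named genes that fell have unlike roles. Zdhhc2, a palmitoyltransferase that attaches lipid to proteins, fell by 0.84, with SE 0.13 and an edgeR adjusted p of 0.0349, from 37.3 to 45.0 CPM in NonIR to a lowest, median and highest of 18.4, 23.5 and 29.8 CPM after irradiation. Tex2, a lipid-binding protein of endoplasmic reticulum contact sites, fell by 0.81, with SE 0.15 and an edgeR adjusted p of 0.0496, from 583 to 734 CPM to 280, 379 and 483 CPM. Spata13, an exchange factor for the GTPases Rac1 and Cdc42, fell by 0.77, with SE 0.14 and an edgeR adjusted p of 0.0466, from 74.4 to 94.3 CPM to 42.5, 47.4 and 63.8 CPM. In each of these the irradiated and NonIR ranges did not overlap. Dpysl3, a cytoskeletal protein gene of the collapsin response mediator family, fell by 0.69, with SE 0.12 and an edgeR adjusted p of 0.0452, and its irradiated libraries lay between 37.9 and 51.7 CPM against 65.5 to 83.4 CPM. Mrfap1, a partner of Morf4 family proteins, fell by 0.68, with SE 0.12 and an edgeR adjusted p of 0.0452, from 89.9 to 107 CPM to between 51.8 and 73.5 CPM. Arl4a, a small GTPase of the Arf-like family, fell by 0.57, with SE 0.10 and an edgeR adjusted p of 0.0466, from 35.3 to 37.9 CPM to between 21.5 and 28.9 CPM. Arl4a had the smallest change of the called genes and a spread of 1.30 CPM (SD, n = 3) in NonIR. Zdhhc2 overlaps Cnot7 on the other strand, and Cnot7 was at -0.07. Among the called genes described elsewhere, Ccdc62 overlaps Gm43518 and Rab27a overlaps Gm27186, on the same strand. Tef overlaps Gm17597 on the other strand. Gm43518, Gm27186 and Gm17597 were not tested.

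Called genes with few reads were Slitrk4, Cst10 and Gm12887, which the naming rule leaves out and which are named after their values were seen. Slitrk4, a synaptic membrane protein gene, had 17 reads in the 10 irradiated libraries and 33 reads in the 3 NonIR libraries. Scaled to depth, the irradiated level was 0.139 of the NonIR level, with a Poisson interval of 0.0728 to 0.257 that covers counting error only. In NonIR it held 0.684, 1.10 and 0.817 CPM, and in irradiated libraries between 0 and 0.330 CPM, with 3 libraries at 0. Gm12887, a predicted protein-coding gene, had 28 reads after irradiation and 37 in NonIR, a ratio of 0.205 (0.121 to 0.344). The groups did not overlap for either gene, but only NonIR libraries held 10 or more reads of them, so both passed the filter through the group where they are high, and their separation supports nothing further. Cst10, a cystatin, had 43 reads in irradiated and 312 in NonIR libraries, and 5 irradiated libraries were at 0. Its NonIR levels were 0.205, 3.80 and 21.6 CPM, so NonIR 1 lay among the irradiated libraries and NonIR 2 and NonIR 3 above all of them, the highest of which held 2.502 CPM.

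Between IR_NTN and IR_GFP 3 of 14727 genes were called (0.0204%) and 896 had an unadjusted p below 0.05 (6.08%). None of the 16 genes above was among the called, with a smallest edgeR adjusted p of 0.669 for the difference, and an unadjusted p below 0.05 was found for 6 of them. For 9 of the 16 the 95% interval of the log2 difference between vectors lay within 0.5 on either side of 0. Senp3 had an interval of -0.26 to 0.27, Mrfap1 of -0.27 to 0.22, Dpysl3 of -0.30 to 0.20, Ccdc62 of -0.27 to 0.38 and Zdhhc2 of -0.18 to 0.39. Arl4a, Spata13, Tex2 and Ccdc137 were the other 4. Intervals that did not include 0 were those of Il1rn (0.16 to 1.10, lower in IR_GFP), Tef (-0.70 to -0.05, higher in IR_GFP), Ccdc137 (0.00 to 0.47), Gm12887, Slitrk4 and Cst10. Their differences are in size and not in sign, since both vector groups lay on the same side of NonIR for all 16 genes. The 16 were chosen by the pooled comparison, and both vector groups share its NonIR libraries. A common sign is therefore no separate support for a shared change. Set against NonIR on their own, with the same 3 NonIR libraries, IR_GFP had 5 of the 16 called and IR_NTN 3, and 10 were called in neither. Over all 14727 genes tested, IR_GFP against NonIR called 5 and IR_NTN against NonIR called 3.

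**Figure D2:**
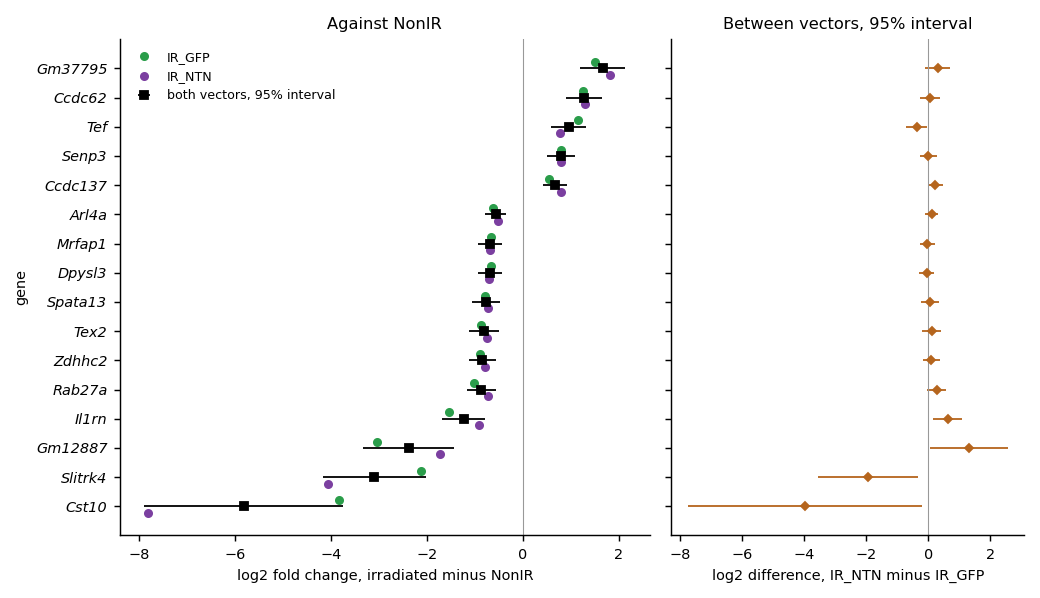
Left, log2 fold change against NonIR of the 16 called genes, for both vectors pooled (squares, bars are 95% intervals) and for each vector group (circles). Right, the log2 difference of IR_NTN and IR_GFP with its 95% interval, which for Senp3 runs from -0.26 to 0.27 and for Cst10 is several log2 units wide.

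Most p53 targets and DNA damage response genes had values above 0 in irradiated glands, and none was called. All 28 members of the list were tested. Of these, 21 had a value above 0 and the median was 0.31, against 0.0088 for all genes, with 0.18 in IR_GFP and 0.45 in IR_NTN. Without NonIR 1 the median was 0.17. Their summed level, which the most abundant members set, went the other way, with 750.7 to 990.9 CPM in NonIR and 618 to 891 CPM in irradiated libraries. An unadjusted p below 0.05 was reached by 4 on the higher side (4.86% of all genes) and 1 on the lower side (3.88% of all genes). Gdf15, a secreted stress cytokine, held 0.342, 0.506 and 0.245 CPM in NonIR and a lowest, median and highest of 0.508, 0.927 and 1.43 CPM in irradiated libraries. Its ranges did not overlap, by a margin of less than 0.01 CPM, and its log2 fold change was 1.37 (SE 0.41, edgeR adjusted p = 0.319). Gdf15 had 3 to 6 reads in NonIR and 7 to 20 in irradiated libraries. It passed the filter only through the group where it is high, so its separation supports nothing further. Cdkn1a, which encodes the cell cycle inhibitor p21, held 8.08, 12.4 and 11.9 CPM in NonIR, 18.9, 31.8, 19.2, 11.5 and 11.9 CPM in IR_GFP and 32.6, 13.3, 21.3, 17.0 and 42.5 CPM in IR_NTN. IR_GFP 4 and IR_GFP 5 lay within the NonIR range and the other 8 above it, for a log2 fold change of 1.01 (SE 0.39, edgeR adjusted p = 0.466). Eda2r, a death receptor of the TNF receptor family, was at 0.69 (SE 0.24, edgeR adjusted p = 0.390). Btg2, an antiproliferative gene that is also an immediate early gene, was at -0.50 (SE 0.16, edgeR adjusted p = 0.365), the only 1 of the 4 named with a value below 0.

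Among clock genes the output gene Tef rose, and the activator Arntl had a value below 0 that was not called. Tef, a PAR bZIP transcription factor driven by the clock, held 19.3, 20.7 and 19.3 CPM in NonIR, 36.7, 30.0, 56.8, 41.7 and 53.5 CPM in IR_GFP and 32.4, 37.5, 34.3, 35.3 and 28.9 CPM in IR_NTN. No irradiated library reached down to the NonIR range. Tef rose by 0.96 in log2 units, with SE 0.17 and an edgeR adjusted p of 0.0466, a fitted rise of 1.94-fold. It lies on chromosome 15 from 81802421 to 81826863 on the plus strand. Arntl, which encodes the activator BMAL1, was at -0.79 (SE 0.19, edgeR adjusted p = 0.194). It lay between 18.9 and 31.9 CPM in NonIR and between 9.58 and 21.8 CPM in irradiated libraries, with IR_GFP 2 the 1 irradiated library inside the NonIR range. The repressor Per3 was at 0.86 (edgeR adjusted p = 0.377), from 3.70 to 4.30 CPM in NonIR to 3.73 to 13.7 CPM. The PAR bZIP gene Dbp was at 1.31 (edgeR adjusted p = 0.452), with all libraries at or below 1.37 CPM. Dbp had at most 7 reads in a NonIR library and passed the filter only through irradiated libraries. Of 22 clock genes 22 were tested and 1 was called, with 14 above 0 and a median of 0.13. Unadjusted p-values below 0.05 numbered 5 on the higher side and 1 on the lower, against 4.86% and 3.88% of all genes. The sources used here do not give the hour at which glands were taken, and its part in these values was not tested.

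The clock activator binds the E-box CACGTG, so promoters of the clock list were searched for it, on both strands. RefSeq windows of 300 bases, from 250 before to 50 after a gene's start, were found for 18 of the 22 genes. They held an E-box in 5 (27.8%), namely Tef, Per1, Cry1, Ciart and Bhlhe41, against 8.09% of 27025 genes. Among the 12 called genes with a window, Tef and Rab27a held one. The D-box TTATGTAA, bound by Tef and Dbp, was found in 1 of the 18, Per3 (5.56%, against 1.11% of all genes). For Tef the table holds a pair of windows, from different annotated starts, with an E-box 127 and 138 bases before the start of each. The 250 bases before the first of these starts are shown because Tef is the called clock gene. This RefSeq start lies downstream of the GENCODE start given above, so the bases printed fall inside the GENCODE gene (GRCm38.p6, plus strand, chr15:81802423-81802672, E-box in capitals).
Tef: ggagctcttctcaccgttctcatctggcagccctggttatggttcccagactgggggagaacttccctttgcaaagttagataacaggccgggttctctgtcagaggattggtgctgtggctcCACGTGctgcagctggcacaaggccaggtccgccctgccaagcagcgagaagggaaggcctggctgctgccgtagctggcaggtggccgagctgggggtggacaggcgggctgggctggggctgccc
A match describes the letters of the window and not binding, and the shares above do not depend on the levels measured here.

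Chaperones and quality control genes of the endoplasmic reticulum, where secreted proteins fold, mostly had values below 0. All 25 members of the list were tested and none was called. Of these, 20 had a value below 0, and 9 had an unadjusted p below 0.05 on the lower side, against 3.88% of all genes. The list median was -0.28, with -0.34 in IR_GFP and -0.25 in IR_NTN, and the list's summed level was 5459 to 5770 CPM in NonIR and 4273 to 5747 CPM in irradiated libraries. Edem1, a lectin that sends misfolded glycoproteins to degradation, held 68.3, 71.6 and 57.0 CPM in NonIR, 53.1, 34.98, 32.3, 42.1 and 28.1 CPM in IR_GFP and 38.7, 40.2, 33.6, 38.6 and 31.8 CPM in IR_NTN. Its ranges did not overlap, and its log2 fold change of -0.81 (SE 0.15, edgeR adjusted p = 0.0586) missed the threshold. Of the 13 fits with 1 library left out, Edem1 was called in the 1 without IR_GFP 1 (-0.89, edgeR adjusted p = 0.0166). It was not called in the other 12, where the adjusted p was 0.0752 to 0.495, the highest without NonIR 2.

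Dnajc3, a co-chaperone of BiP that inhibits the kinase PERK, held 267, 228 and 222 CPM in NonIR and a lowest, median and highest of 150, 171 and 202 CPM in irradiated libraries. Its log2 fold change was -0.48 (SE 0.11, edgeR adjusted p = 0.174). The disulfide isomerase Pdia4 was at -0.39 (SE 0.10, edgeR adjusted p = 0.241), with 212 to 228 CPM in NonIR and 155 to 194 CPM after irradiation. Hsp90b1, the endoplasmic reticulum HSP90 chaperone, was at -0.44 (SE 0.12, edgeR adjusted p = 0.276), and its ranges of 394 to 571 CPM and 281 to 399 CPM overlapped in IR_NTN 2. Dnajc3 and Pdia4 separated all 10 irradiated libraries from NonIR.

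**Figure D3:**
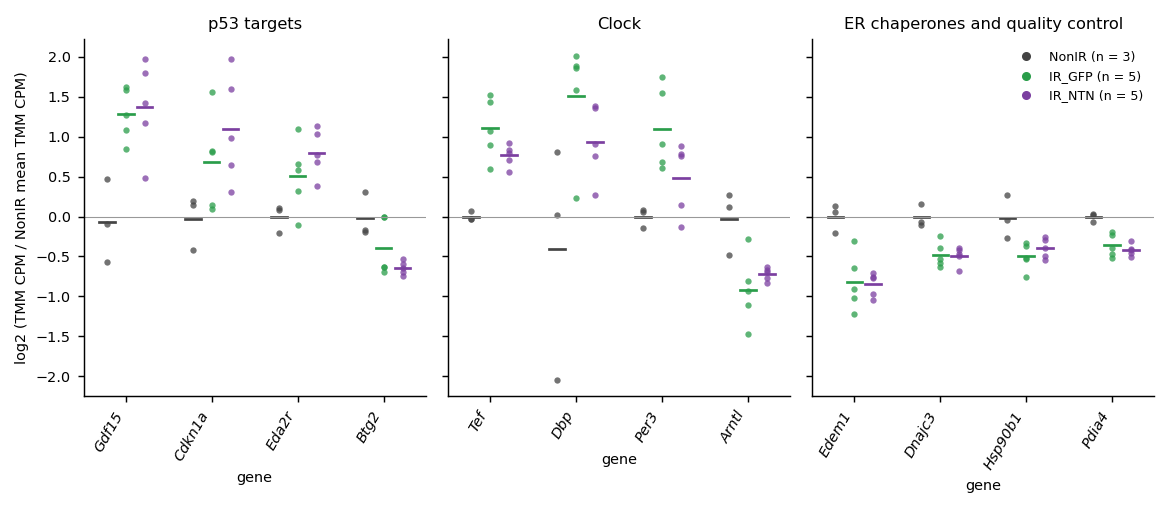
Level of 4 genes each from the p53 target, clock and endoplasmic reticulum lists in every library, as log2 of CPM over the NonIR mean, with bars for group means of the log2 ratio. Edem1, Dnajc3 and Pdia4 lie below NonIR in all 10 irradiated libraries, Tef lies above NonIR in all 10, and Cdkn1a overlaps NonIR in IR_GFP 4 and IR_GFP 5.

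The promoters of this list were searched for the ER stress response element, to which ATF6 binds. Its letters, CCAAT and CCACG with any 9 bases between them, were found, on either strand, in 7 of 22 windows (31.8%), against 0.137% of 27025 genes. The 7 genes are Hspa5, Hsp90b1, Calr, Canx, Pdia6, Dnajc3 and Creld2, named for the match and not for their values. This share depends on the genes listed and not on their levels, so it is not a result about irradiated glands. Promoter windows of the called genes held no such match. Dnajc3 and Hsp90b1 are shown as the named members with a match. The element, in capitals, starts 105 bases before the RefSeq start of Dnajc3 (GRCm38.p6, plus strand, chr14:118937682-118937931), and 212 and 107 bases before that of Hsp90b1 (minus strand, chr10:86705445-86705694), where the copy nearer the start reads in the opposite orientation.
Dnajc3: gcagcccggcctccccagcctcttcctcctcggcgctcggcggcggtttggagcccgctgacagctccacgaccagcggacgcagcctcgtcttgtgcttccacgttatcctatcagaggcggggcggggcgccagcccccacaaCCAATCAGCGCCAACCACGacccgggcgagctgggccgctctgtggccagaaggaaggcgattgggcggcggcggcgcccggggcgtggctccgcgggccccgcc
Hsp90b1: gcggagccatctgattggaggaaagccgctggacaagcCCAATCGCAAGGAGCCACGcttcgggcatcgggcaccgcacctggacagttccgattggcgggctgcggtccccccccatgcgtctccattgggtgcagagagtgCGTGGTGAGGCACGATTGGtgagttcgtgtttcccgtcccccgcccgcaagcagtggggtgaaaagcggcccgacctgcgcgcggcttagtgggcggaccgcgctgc

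Ribosome biogenesis genes, which act in the nucleolus, had Senp3 as the 1 called of 26 tested, with 17 above 0 and a median of 0.06. Polr1b, the second largest subunit of RNA polymerase I, held 19.3 to 23.4 CPM in NonIR and a lowest, median and highest of 28.0, 30.8 and 40.2 CPM in irradiated libraries. It was at 0.56 (SE 0.13, edgeR adjusted p = 0.178) without overlap. Nol9, a kinase of ribosomal RNA processing, lay at 0.63 (SE 0.14, edgeR adjusted p = 0.181), with 16.5 to 20.6 CPM against 23.4 to 35.6 CPM. These 3 were the members with an unadjusted p below 0.05, all on the higher side, which 4.86% of all genes tested reached. Among 32 cytosolic ribosomal proteins none was called, 24 were above 0 and the median was 0.23. Rpl3 was at -0.49 (SE 0.10, edgeR adjusted p = 0.129), from 371 to 444 CPM to 243 to 323 CPM, and Rpl5 at 0.48 (SE 0.13, edgeR adjusted p = 0.288), from 93.5 to 114 CPM to 115 to 179 CPM. For both the ranges did not overlap, in opposite directions. Many ribosomal protein genes have near-identical processed copies, among which reads can be split.

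Acinar secretory products had no common direction. Of 20 members 18 were tested, 11 were above 0 and 7 below, and the median was 0.14. Cst10 was the 1 called. Amy1, the salivary amylase, held 32.2, 68.6 and 273 CPM in NonIR and a lowest, median and highest of 12.5, 20.7 and 38.5 CPM in irradiated libraries, at -2.43 (SE 0.45, edgeR adjusted p = 0.129). Smr3a, a proline-rich salivary peptide gene, was at 0 reads in NonIR 1, at 3.29 CPM in NonIR 2 and at 29.5 CPM in NonIR 3, against 0 to 1.95 CPM after irradiation. Cst10, Amy1 and Smr3a thus shared an order within NonIR, lowest in NonIR 1 and highest in NonIR 3, and were low in the irradiated libraries. Without NonIR 1, Amy1 (-2.85) and Smr3a (-5.95) were both called, at an edgeR adjusted p of 0.0256. Without NonIR 3 none of the 3 was, with Amy1 at -1.12, Smr3a at -2.63 and Cst10 at -3.71. Bpifa2, a secreted protein of saliva also called PSP, was at 0.97 (SE 0.31, edgeR adjusted p = 0.386), with 10247 to 18255 CPM in NonIR and 14479 to 42020 CPM in irradiated libraries.

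Granular convoluted tubule products had values below 0 in 18 of 20 tested members, with none called and a median of -0.52 (IR_GFP -0.65, IR_NTN -0.34). Fgf1, a fibroblast growth factor, did not overlap between the groups, with 55.2 to 59.7 CPM in NonIR and 34.4 to 50.1 CPM after irradiation, and was at -0.41 (SE 0.12, edgeR adjusted p = 0.314). Crisp3, a cysteine-rich secretory protein, was at -0.63 (edgeR adjusted p = 0.390). Klk1, tissue kallikrein, went the other way, at 0.42 (edgeR adjusted p = 0.680). The kallikreins on this list are near-identical copies among which reads can be split, so their single values are uncertain.

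Duct genes had values below 0 in 16 of 23 tested members of 24, with none called and a median of -0.18. The epithelial sodium channel subunits Scnn1b and Scnn1g were at -0.48 and -0.47, with edgeR adjusted p-values of 0.504 and 0.495. The potassium channel gene Kcnj16 was at -0.33 (edgeR adjusted p = 0.457). Ascl3, a transcription factor of ionocyte-like duct cells, was at 0.89 (SE 0.39, edgeR adjusted p = 0.539), from 4.31 to 8.34 CPM in NonIR to 5.92 to 21.3 CPM. Scnn1b ranges of 106 to 145 CPM and 57.8 to 127 CPM overlapped, as did those of the other 3.

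Endothelial genes were mostly above 0, in 14 of 18 tested members of 22, with none called and a median of 0.10. Vwf, von Willebrand factor of endothelial storage granules, was the exception among the 4 named. It held 9.65, 21.5 and 11.3 CPM in NonIR, 6.60, 7.19, 5.24, 4.72 and 5.53 CPM in IR_GFP and 5.88, 9.27, 5.95, 8.05 and 10.6 CPM in IR_NTN. Only IR_NTN 5 reached the NonIR range, and the log2 fold change was -1.05 (SE 0.22, edgeR adjusted p = 0.138). Tie1, Flt1 and Robo4 were at 0.59, 0.35 and 0.30, none of them called. The summed level of the list was 116 to 143 CPM in NonIR and 126 to 172 CPM in irradiated libraries.

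The immune and stromal lists given next, and the mitosis list, had medians on opposite sides of 0 in the 2 vector groups, which a pooled median joins. The B and plasma cell list, with 17 of 22 members tested, had a median of 0.81 in IR_GFP and -0.06 in IR_NTN. Its summed level ran from 330 to 3169 CPM in IR_GFP, from 117 to 1063 CPM in IR_NTN and from 335 to 1491 CPM in NonIR. Medians of the macrophage list of 23 were 0.38 in IR_GFP and -0.20 in IR_NTN. Those of the interferon response list of 36 were 0.32 and -0.10, and of the extracellular matrix list, 29 of 30 tested, 0.25 and -0.01. The summed level of the interferon list had a median of 1283 CPM in IR_GFP and 1319 CPM in IR_NTN, and was highest in IR_GFP 4 at 2779 CPM. The mitosis list, 25 of 26 tested, had a median of -0.10 in IR_GFP and 0.53 in IR_NTN. No member of these lists was called in the pooled comparison, and whether the list medians differ between vectors was not tested. Trem2, a lipid receptor of macrophages, was at 0.81 (SE 0.22, edgeR adjusted p = 0.257) with like values in both vector groups, 0.78 and 0.83. It ranged from 1.71 to 2.21 CPM in NonIR and from 2.62 to 4.84 CPM in irradiated libraries, without overlap. The pattern recognition receptor Cd14 was at -0.37 (edgeR adjusted p = 0.442). Cxcl10, an interferon-induced chemokine, held 0.616, 2.53 and 0.327 CPM in NonIR and 0.0594 to 0.944 CPM in irradiated libraries, and was not called. Only NonIR 2 lay above the irradiated range. Of 24 neuronal genes only 9 passed the filter, of which 5 had values above 0 and 4 below. The list median was 0.07, with 0.45 in IR_GFP and -0.30 in IR_NTN. Slitrk4, which passed only through NonIR, was the 1 called. Gap43, a growth cone protein, was at 1.68 (edgeR adjusted p = 0.620), with 0 to 0.490 CPM in NonIR and 0.145 to 2.18 CPM in irradiated libraries. Gap43 had at most 6 reads in a NonIR library and passed the filter only through irradiated libraries. Tubb2b, a neuronal tubulin, was at -0.87 (SE 0.24, edgeR adjusted p = 0.276), from 2.19 to 2.87 CPM in NonIR to 0.944 to 1.94 CPM.

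**Figure D4:**
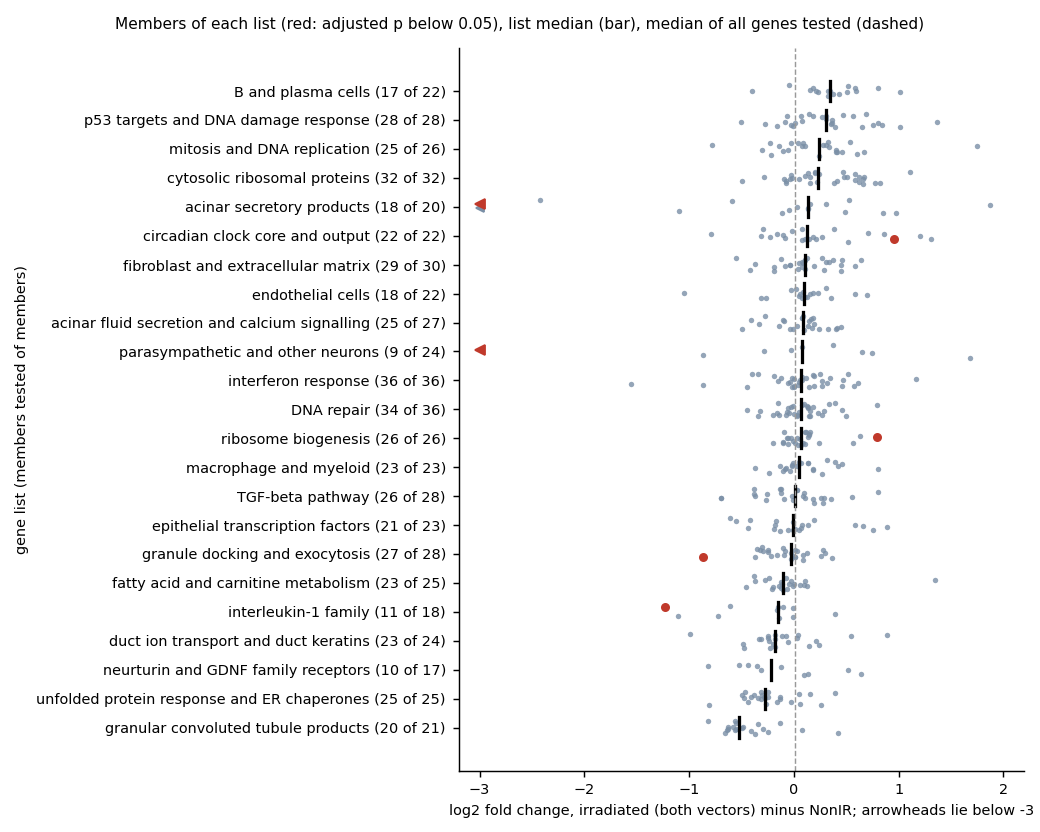
log2 fold change of irradiated over NonIR glands for every tested member of each gene list described here, with bars for list medians, a dashed line for the median of all genes tested (0.0088) and red for called members; arrowheads mark values below -3. The granular tubule and endoplasmic reticulum lists have the lowest medians, -0.52 and -0.28, and the p53 and B and plasma cell lists the highest, 0.31 and 0.35.

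Because fewer than 5 genes of the naming rule rose, the 10 higher genes of lowest p that meet its other conditions were also taken as values. Besides the 4 given above, 5 are described here. Cpt1c, the brain form of carnitine palmitoyltransferase 1, held 3.901, 4.39 and 4.25 CPM in NonIR and between 7.12 and 18.1 CPM in irradiated libraries. It lay at 1.35 (SE 0.25, edgeR adjusted p = 0.0586), highest in IR_GFP 1 and above NonIR in all 10. The zinc finger genes Zfp263 and Zfp952 were at 0.60 and 0.63 (edgeR adjusted p = 0.109 and 0.129). Ywhab, an adaptor protein of phosphorylated partners, was at 0.64, and Slc24a3, a potassium-dependent sodium-calcium exchanger, at 0.93, both with an edgeR adjusted p of 0.153. The irradiated and NonIR ranges of these 5 were apart, which the rule requires.

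The calls depended on which libraries were present. Leaving out NonIR 2 or NonIR 3 left 0 genes called by edgeR, with 1075 and 1180 at an unadjusted p below 0.05, and leaving out NonIR 1 left 6. Leaving out IR_GFP 1 raised the count to 38, which held all 16, and leaving out 1 of the other 9 irradiated libraries gave 2 to 8. Gm37795 stayed called without any 1 irradiated library and lost the call without NonIR 1 (1.66, edgeR adjusted p = 0.0887), NonIR 2 (1.79, 0.163) or NonIR 3 (1.57, 0.0934). Ccdc62 lost the call without NonIR 2 (1.16, edgeR adjusted p = 0.221) or NonIR 3 (1.29, 0.0934) and kept it in the other 11 fits. Slitrk4 kept it in 6 of 13 fits, Zdhhc2 in 3, Rab27a, Senp3, Spata13, Tef and Tex2 in 2, and Il1rn, Dpysl3, Mrfap1, Arl4a, Ccdc137 and Gm12887 in the 1 without IR_GFP 1. Cst10 kept it in 2 of 12 fits, since it did not pass the filter without IR_GFP 3. No fold change of the 16 changed sign in the fits in which the gene was tested. Over them Rab27a ranged from -0.93 to -0.78, Tef from 0.90 to 1.01, Senp3 from 0.73 to 0.85, Il1rn from -1.40 to -1.06 and Cst10 from -6.87 to -3.71.

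**Figure D5:**
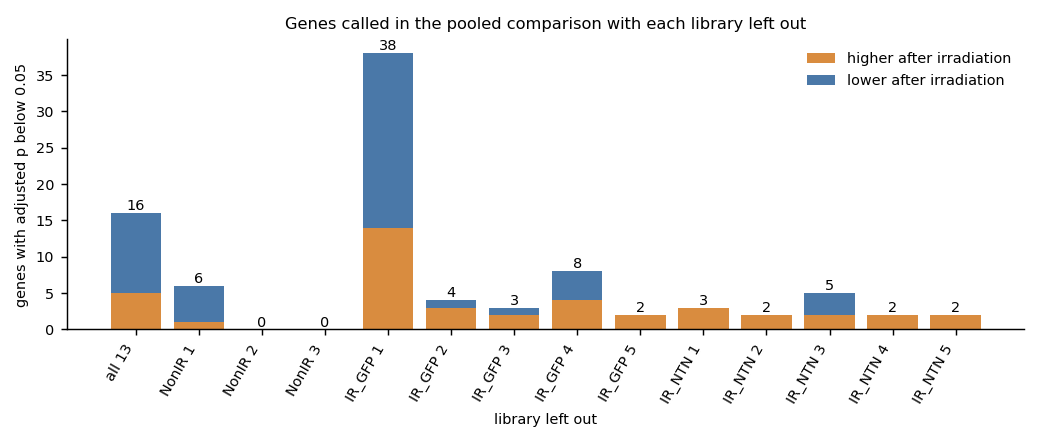
Number of genes with an edgeR adjusted p below 0.05 in the pooled comparison, with all 13 libraries and with each library left out in turn, split into higher (orange) and lower (blue) after irradiation. The count is 16 with all libraries, 0 without NonIR 2 or NonIR 3 and 38 without IR_GFP 1.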

How the data were processed

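RNA of 13 submandibular gland libraries was made into cDNA with SMART-Seq v4 and Nextera XT, kits that keep no strand, and read on a NextSeq 500, per the labels' protocols. The submitters' processing notes name STAR 2.5.2a, the build GRCm38.p3 (mm10), DESeq2, edgeR and limma. No counting tool is given in the sources used here, and the series description names another instrument, other aligners and triplicates. The authors deposited a table of raw count values for 48733 rows, 24 of them spike-in or vector sequences that were left out of tests, and a table of normalised signal values for 17957 rows, which on testing were the counts times 1 constant per library.

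From the counts, low genes were removed with filterByExpr on the groups, and the rest scaled by TMM and tested with the edgeR 4.0.16 quasi-likelihood fit (robust, R 4.3.3, 1 mean per group, 10 residual degrees of freedom). The contrast was the mean of the 2 vector groups minus NonIR, two-sided, with Benjamini-Hochberg adjustment over 14727 genes. The common dispersion of 0.07 corresponds to a coefficient of variation of 0.265 between libraries. Standard errors are the size of the fold change over the root of F. The test was also run on simulated counts in which 200 genes were changed in both vector groups. That simulation held no outlying library, so it does not bear on calls lost when 1 library is left out. Alternatives used DESeq2 1.42.0 and limma 3.58.1. A count of 0 allows up to 3 reads (0.176 to 0.253 CPM), which covers counting error only, since reads lack molecular identifiers.

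Members and gene lists were chosen with earlier results of these data known. Named genes are called genes with a symbol other than a predicted-gene name, no overlap of the 10 irradiated with the 3 NonIR libraries, the same sign in both vector groups and a mean of at least 1 CPM in a group. From each list described, up to 4 members of lowest p are named, as values unless called, and results of some genes are not reported here. Symbols and coordinates came from the deposited table and GENCODE release M21 (GRCm38), and sequences from RefSeq (GRCm38.p6).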

Additional observations from a re-analysis of the deposited data

Results flagged for a closer look

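In each vector group of 5 libraries a value was marked when its gap to the nearest of the others exceeded 0.710 of the group's range. There were 11 such values in 168 groups tested, and chance marks about 1 in 20. In IR_GFP 3, Cst10 (2.502 CPM, the others at most 0.4046 CPM) and Smr3a (1.955 CPM, the others at most 0.5076 CPM) were high. IR_GFP 1 was high for Sox9 (89.63 CPM, the others 37.15 to 48.24 CPM) and Hmgcs1 (94.56 CPM, the others 51.65 to 57.36 CPM), and low for Nol9 (24.36 CPM, the others 32.53 to 35.60 CPM). IR_GFP 5 was high for Polr1b, at 40.24 CPM. In IR_NTN 5, Cst10 was at 0.1586 CPM with the other 4 at 0, Adra1a was low at 22.05 CPM and Ercc1 high at 11.98 CPM. IR_NTN 3 was high for Il18, at 1.059 CPM. IR_NTN 3 also had the fewest reads of its group, 11434807 against at least 14438509.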

How the results depend on the processing

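The count of 16 genes stayed within 1.5 times with DESeq2 size factors (12), no filter on low counts (23), a mean of at least 10 reads (13) and without IR_GFP 1 and IR_GFP 2 together (17). DESeq2 called 64 genes, 32 higher and 32 lower, 12 of them among the 16. limma-voom and limma-trend on the deposited values called 2 each, Gm37795 and Ccdc62, and treating the irradiated libraries as 1 group called 7. A test against a log2 fold change of 0.5 (glmTreat of edgeR) called 0, with 190 genes at an unadjusted p below 0.05. Leaving out 1 library gave 0 to 38. For IR_NTN against IR_GFP the count of 3 became 39 with DESeq2, 10 with no filter, 1 without IR_GFP 1 and IR_GFP 2, and 0 to 11 with 1 library left out. The cause was not tested.

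The replicate numbers of the labels as a block left 0 genes called by edgeR in either comparison, with 1026 (pooled) and 691 (between vectors) at an unadjusted p below 0.05. Same-numbered libraries deviated together, with a correlation above 0.1, in 3 of 11 pairs (range -0.43 to 0.28), and 1 of 13 libraries correlated best with its own number. These correlations show no general pairing by number. They cannot exclude a pairing or a shared batch, as each group holds only 3 or 5 libraries.

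Of 361 values of the 16 called genes under 23 alternatives, 120 stayed past the threshold, 241 did not and 0 changed sign. Of 1529 values of 67 further genes, 32 passed the threshold and 0 changed sign. DESeq2 gave no adjusted p for 15 genes, mostly of low level, and those values were left out. List medians were taken under 18 of the alternatives, all fitted with edgeR. The sign of a list median changed in at least 1 of these 18 for the mitosis, macrophage, interferon, extracellular matrix, neuron, epithelial transcription factor and TGF-beta lists. Over these alternatives the median ranged from 0.17 to 0.35 for p53 targets, 0.04 to 0.17 for clock genes, -0.32 to -0.23 for endoplasmic reticulum genes, 0.02 to 0.10 for ribosome biogenesis, 0.06 to 0.51 for ribosomal proteins, -0.67 to -0.41 for granular tubule products, -0.19 to -0.10 for duct genes, -0.29 to -0.10 for the interleukin-1 family, 0.04 to 0.20 for endothelial genes, 0.20 to 0.82 for B and plasma cells, 0.07 to 0.15 for fluid secretion and 0.03 to 0.14 for DNA repair.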

Other observations

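Genes of acinar fluid secretion and calcium signalling, 25 tested of 27, had a median of 0.08 and none was called. The calcium release channel Itpr2 was at 0.40 (edgeR adjusted p = 0.390), and its ranges did not overlap. The adrenergic receptor Adra1a was at -0.41 (edgeR adjusted p = 0.404). Among 21 tested epithelial transcription factors Tbx3 was at -0.55 (SE 0.13, edgeR adjusted p = 0.176), Sox9 at -0.61, Sox10 at 0.66 and Etv5 at 0.75, none of them called. In the TGF-beta list, 26 tested of 28, the signal transducer Smad3 was at 0.80 (edgeR adjusted p = 0.312), and its feedback inhibitor Smad7 at -0.69 (edgeR adjusted p = 0.390). The latent TGF-beta binding proteins Ltbp1 and Ltbp4 were at -0.69 and -0.37, both uncalled. In the DNA repair list, 34 tested of 36, Mgmt, which reverses alkylation of guanine, was at 0.40 (edgeR adjusted p = 0.331) and the end-joining ligase gene Lig4 at -0.45 (edgeR adjusted p = 0.390), each without overlap of the groups. Among neurturin and related receptors, 10 tested of 17, Ncam1 was at -0.52 (SE 0.15, edgeR adjusted p = 0.288), with 40.6 to 41.4 CPM in NonIR and 21.97 to 36.6 CPM in irradiated libraries.

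Without IR_GFP 1, 22 genes were called in addition to the 16, and DESeq2 called 52 in addition to the 12 it shared. The additional genes had 12 in common, 54.5% of the first set and 23.1% of the second. Selected from them after their values were seen, without IR_GFP 1 Sox9, a transcription factor gene of gland progenitors, was at -0.76 (edgeR adjusted p = 0.0270), Dclk1, a microtubule-associated kinase of tuft cells, at -1.16 (edgeR adjusted p = 0.0166) and Clic6, a chloride channel family gene, at -1.03 (edgeR adjusted p = 0.0298). With all 13 libraries Sox9 was at -0.61, Dclk1 at -0.72 and Clic6 at -0.97, with edgeR adjusted p-values of 0.406, 0.732 and 0.129.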
